A study of Saccharomyces cerevisiae with 16 samples.

Results

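Ssu72-restricted transcripts (SRTs) are noncoding RNAs of the budding yeast Saccharomyces cerevisiae, annotated because they accumulate when the phosphatase Ssu72 is impaired. The count table held 240 rows of this class among 12670 rows of all classes, and every row with the class label was taken. The table itself appears to have been filtered on level, as described below. Their names ran from SRT2 to SRT605, and SRTs with other numbers were not analysed here. The question for these rows was how their RNA levels changed without Rrp6 and without both Rtr1 and Rrp6. The 3 genotypes were rtr1Δ rrp6Δ (4 libraries, replicates 1 to 4), rrp6Δ (3 libraries, replicates 1, 3 and 4) and wild type, WT (4 libraries, replicates 1 to 4). All strains were isogenic to BY4741, a haploid laboratory strain of mating type a, and cultures were harvested at OD600 0.8. The strain without RRP6 was taken from a commercial knockout collection, and RTR1 was replaced in it by a kanamycin cassette to give rtr1Δ rrp6Δ. Both deletion strains therefore share the history of 1 rrp6Δ parent. Cultures of the same replicate number were grown on the same day, and different numbers on different days.

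Ssu72 is a subunit of the cleavage and polyadenylation factor (CPF) and removes phosphate from the C-terminal domain of RNA polymerase II (RNAPII). Ssu72 also helps hold the end of a gene near its start, in a structure called a gene loop, which favours transcription in the coding direction. SRTs were defined as the divergent and other noncoding RNAs that this directionality keeps low. Rrp6 is an exonuclease of the nuclear exosome, which trims and degrades many noncoding RNAs, often after termination by the Nrd1-Nab3-Sen1 (NNS) complex. Rtr1 is another phosphatase of the RNAPII C-terminal domain. Cryptic unstable transcripts (CUTs) are known as exosome targets, Nrd1-unterminated transcripts (NUTs) as RNAs that lengthen and accumulate when Nrd1 is depleted, and stable unannotated transcripts (SUTs) as noncoding RNAs seen in cells with a working exosome. In bulk RNA, more RNA per cell and more cells that make an RNA cannot be told apart.

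The table gives no coordinates for SRTs, so an SRT was placed only through rows of other classes with equal or close counts. Rows whose counts lay within 10% of each other in every library are said here to share reads. This is an inference from counts, since positions could not be compared. AST rows are antisense transcripts, annotated by the study as the strand opposite an open reading frame (ORF). For 9 SRTs, the counts lay within 10% of those of an AST row opposite a named ORF in every library. The 3 such ORFs whose matches were closest are shown: the counts of SRT540 equalled those of the AST row opposite FAR11, those of SRT178 were within 0.640% of the row opposite COF1, and those of SRT333 within 0.977% of the row opposite YRO2. Each sequence is the antisense strand over the last 300 bases of the ORF and lies in 1 coding exon of the R64 reference genome of RefSeq. Antisense transcription that enters the ORF from beyond its end would meet this window first. The ends of each SRT are not known, so the coordinates and letters describe the window and not the SRT. Capitals mark TCTT, the DNA form of the core motif bound by Nab3, and TGTA, the DNA form of a motif bound by Nrd1. Neighbouring TCTT matches may share a T, as may TCTT followed by TGTA.
SRT540, opposite FAR11, chrXIV:386549-386848, minus strand: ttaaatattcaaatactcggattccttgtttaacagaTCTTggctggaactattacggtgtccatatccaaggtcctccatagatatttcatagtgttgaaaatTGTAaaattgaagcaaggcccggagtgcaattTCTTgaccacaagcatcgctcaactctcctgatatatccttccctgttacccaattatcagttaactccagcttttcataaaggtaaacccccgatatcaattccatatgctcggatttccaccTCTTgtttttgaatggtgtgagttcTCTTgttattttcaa
SRT178, opposite COF1, chrXII:39804-40103, plus strand: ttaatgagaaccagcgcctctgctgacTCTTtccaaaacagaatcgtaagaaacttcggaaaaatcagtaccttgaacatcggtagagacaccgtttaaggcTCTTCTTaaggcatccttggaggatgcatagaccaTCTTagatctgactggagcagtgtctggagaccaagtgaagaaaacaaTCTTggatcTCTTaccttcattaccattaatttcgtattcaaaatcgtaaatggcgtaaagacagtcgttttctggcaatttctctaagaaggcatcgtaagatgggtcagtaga
SRT333, opposite YRO2, chrII:343836-344135, minus strand: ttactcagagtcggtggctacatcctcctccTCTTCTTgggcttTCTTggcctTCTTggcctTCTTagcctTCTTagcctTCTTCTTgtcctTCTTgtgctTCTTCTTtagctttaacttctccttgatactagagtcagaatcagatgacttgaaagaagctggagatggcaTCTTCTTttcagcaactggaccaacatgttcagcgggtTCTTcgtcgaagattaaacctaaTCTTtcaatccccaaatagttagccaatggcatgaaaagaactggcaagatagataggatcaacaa
The window opposite FAR11 held 4 TCTT and 1 TGTA, that opposite COF1 held 6 TCTT and 0 TGTA, and that opposite YRO2 held 15 TCTT and 0 TGTA. On the other strand, which is the coding strand, these windows held 0, 5 and 4 TCTT and 0, 0 and 1 TGTA in the same order. Among 5710 windows of this length placed the same way opposite ORFs, 95.4% held TCTT on the antisense strand (median 4) and 75.2% held TGTA (median 1), against 69.6% and 57.6% on the coding strand. At least 4 TCTT occurred in 51.0% of the windows, at least 6 in 23.5% and at least 15 in 0.525%. A match of letters is a description of the sequence and not a binding site.

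The libraries held between 28765694 and 38578463 counts. Levels are given as CPM, read counts brought to a common library size with factors from the trimmed mean of M values (TMM), and they are not divided by transcript length. RRP6 averaged 0.401 ± 0.233 CPM in rtr1Δ rrp6Δ and 0.321 ± 0.0789 CPM in rrp6Δ, against 145 ± 35.7 CPM in WT (SD, n = 4, 3 and 4). RTR1 averaged 1.22 ± 0.181 CPM in rtr1Δ rrp6Δ, 14.9 ± 1.56 CPM in rrp6Δ and 20.4 ± 0.997 CPM in WT. Both deletions were thus seen in every library so labelled. The 6 a-specific genes summed to 1476 to 2099 CPM per library and the 4 alpha-specific genes to 28 to 34.3 CPM, as mating type a cells should. Most of the alpha-specific sum came from SAG1, which was not silent, at 24.7 CPM in rtr1Δ rrp6Δ, 23.7 CPM in rrp6Δ and 24.3 CPM in WT. Replicate 1 stood apart from the other replicates in many rows: its level lay above all the others in all 3 groups in 21.5% of all rows and below in 17.5%, against 5.83% and 20.4% of the SRTs (14 and 49 rows).

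SSU72 itself had more RNA in both deletion strains. The level was 33.7, 27.0, 30.5 and 27.7 CPM in rtr1Δ rrp6Δ, 26.8, 24.3 and 24.9 CPM in rrp6Δ, and 19.5, 15.8, 17.8 and 17.0 CPM in WT. The 3 groups did not overlap, with rtr1Δ rrp6Δ highest. The log2 fold change against WT was 0.76 ± 0.10 (SE, edgeR adjusted p = 3.2e-05) in rtr1Δ rrp6Δ, which passed the 1.5-fold minimum, and 0.53 ± 0.11 (adjusted p = 0.000978) in rrp6Δ, which did not. Between rtr1Δ rrp6Δ and rrp6Δ the log2 fold change was 0.23 ± 0.11 (adjusted p = 0.448), and with the replicate number as a block in the fit it was 0.27 (adjusted p = 0.0248), still under 1.5-fold. The activity of the phosphatase was not measured here.

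SRTs were scarce in all 3 genotypes and took a larger share of the counts in both deletion strains. They took 0.0784%, 0.101%, 0.0983% and 0.0942% of all counts in the rtr1Δ rrp6Δ libraries and 0.0948%, 0.104% and 0.0940% in the rrp6Δ libraries, against 0.0401%, 0.0438%, 0.0468% and 0.0459% in the WT libraries. Every library of both deletion strains was above every WT library, whereas rtr1Δ rrp6Δ and rrp6Δ overlapped. The median SRT of each library lay at 1.81, 2.22, 2.09 and 2.05 CPM in rtr1Δ rrp6Δ and 1.87, 2.20 and 2.12 CPM in rrp6Δ, against 0.937, 1.08, 1.13 and 1.01 CPM in WT. Replicate 1 was the lowest of its genotype in each of the 3 groups by this measure.

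**Figure D1:**
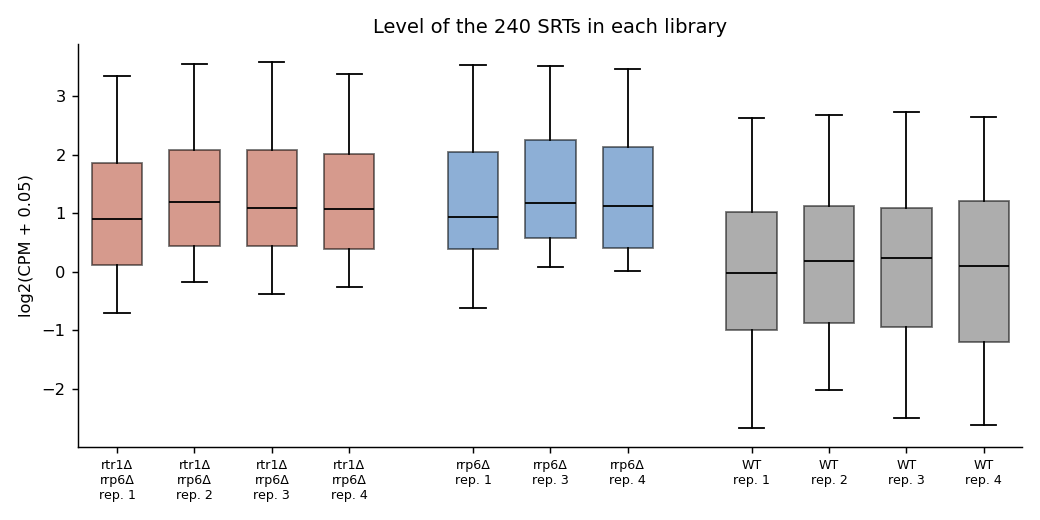
Level of the 240 SRTs in each library, as log2(CPM + 0.05): boxes span the quartiles with the median as a line, and whiskers run from the 5th to the 95th percentile. The medians of the 4 rtr1Δ rrp6Δ and 3 rrp6Δ libraries lie above those of the 4 WT libraries, and on the CPM scale they are 1.81 to 2.22, 1.87 to 2.20 and 0.937 to 1.13.

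Single SRTs covered a wide range of levels. Group means ran from 0.364 to 61.1 CPM in rtr1Δ rrp6Δ, from 0.643 to 61.2 CPM in rrp6Δ and from 0.0638 to 35.7 CPM in WT. A mean under 1 CPM was seen in 36 SRTs in rtr1Δ rrp6Δ, 11 in rrp6Δ and 113 in WT, and one above 5 CPM in 50, 51 and 20 SRTs. The scatter between replicates was largest in WT, where counts were lowest: the median coefficient of variation was 19.2% in rtr1Δ rrp6Δ, 17.3% in rrp6Δ and 25.6% in WT. SRT495 stood first in each group, at 61.6, 58.6, 65.8 and 58.2 CPM in rtr1Δ rrp6Δ, 56.4, 66.1 and 61.0 CPM in rrp6Δ and 35.9, 35.5, 38.9 and 32.5 CPM in WT. Its log2 fold change against WT was 0.77 ± 0.09 in rtr1Δ rrp6Δ and 0.78 ± 0.09 in rrp6Δ (SE, edgeR adjusted p = 7.8e-06 and 1.3e-05). SRT423, whose counts lay within 0.556% of those of SUT569, had 16.8, 18.8, 20.2 and 18.9 CPM in rtr1Δ rrp6Δ and 19.7, 21.5 and 20.7 CPM in rrp6Δ, against 25.4, 23.0, 23.3 and 25.9 CPM in WT. Both deletion strains lay below WT without overlap, but the log2 fold changes against WT of -0.39 ± 0.09 (adjusted p = 0.0025) and -0.24 ± 0.10 (adjusted p = 0.043) were under the 1.5-fold minimum for a call. Library factors from ORF transcripts alone raised the median of all rows by 0.23 in rtr1Δ rrp6Δ and 0.30 in rrp6Δ on the log2 scale. Values of SRT423 with those factors were not recorded, so its small fall may depend on the scaling. SRT172 and SRT517 were the other rows among the 5 highest in WT that moved little, with log2 fold changes of -0.40 ± 0.13 and 0.02 ± 0.12 in rtr1Δ rrp6Δ and -0.30 ± 0.14 and 0.31 ± 0.12 in rrp6Δ. SRT248, SRT431 and SRT33, which were among the 5 highest in at least 1 deletion strain, had log2 fold changes of 1.51 ± 0.11, 2.40 ± 0.14 and 1.44 ± 0.14 in rtr1Δ rrp6Δ and 1.31 ± 0.11, 2.32 ± 0.14 and 1.23 ± 0.15 in rrp6Δ.

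The rows of the table appear to have been chosen on their level. All 240 SRTs reached at least 1 CPM, here of the plain library total, in at least 3 of the 11 libraries, as did 12660 of the 12670 rows of all classes, which is the pattern a filter of this kind leaves. By contrast, 111 SRTs reached that level in at least 3 WT libraries, and 102 reached it in no WT library. Those 102 are in the table through strains other than WT, so that a level above that of WT was a condition for most of them, and counts of changed SRTs below are counts of the rows kept, not of SRTs at large.

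In rrp6Δ, 166 SRTs were higher than in WT and 11 were lower. Calls required an adjusted p no greater than 0.05 in the quasi-likelihood test of edgeR, adjusted over all 12670 rows, and a change of at least 1.5-fold. These are 69.2% and 4.58% of the SRTs, where 36.2% of all rows were called higher and 7.7% lower. The median log2 fold change of the SRTs was 1.35, with quartiles at 0.32 and 2.16 and a range from -1.77 to 4.92, while the median over all rows was -0.02. The median of the SRTs lay between those of the SUTs (0.55) and the NUTs (1.79) and below that of the CUTs (2.68), and ORF transcripts (ORF-T) had a median of -0.29. Of the other classes, 90.4% of the CUTs, 84.7% of the NUTs and 46.6% of the SUTs were called higher, and differences between the classes were not tested. The levels of the replicates did not overlap in 158 SRTs that were above WT (65.8%, with 37.5% of all rows) and 18 that were below (7.5%, with 25.3% of all rows). Among CUTs 0.118% were called lower, among NUTs 0.763% and among SUTs 3.34%.

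In rtr1Δ rrp6Δ, 155 SRTs were higher than in WT and 12 were lower. These are 64.6% and 5% of the SRTs, where 34.5% and 6.55% of all rows were called. The median log2 fold change was 1.23, against 0.41 for SUTs, 1.67 for NUTs and 2.55 for CUTs. Groups did not overlap in 147 SRTs above WT (61.3%, with 35% of all rows) and 13 below (5.42%, with 18.7%). Both comparisons use the same WT libraries, and joint calls were not counted over all rows. Agreement between the strains is therefore not shown to be particular to SRTs. Of the 240 SRTs, 149 were called higher in both, 8 lower in both, 6 higher in rtr1Δ rrp6Δ alone, 17 higher in rrp6Δ alone, 4 lower in rtr1Δ rrp6Δ alone and 3 lower in rrp6Δ alone. None was called in opposite directions and 53 were called in neither, and a row called in 1 strain alone is not thereby shown to differ between them.

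**Figure D2:**
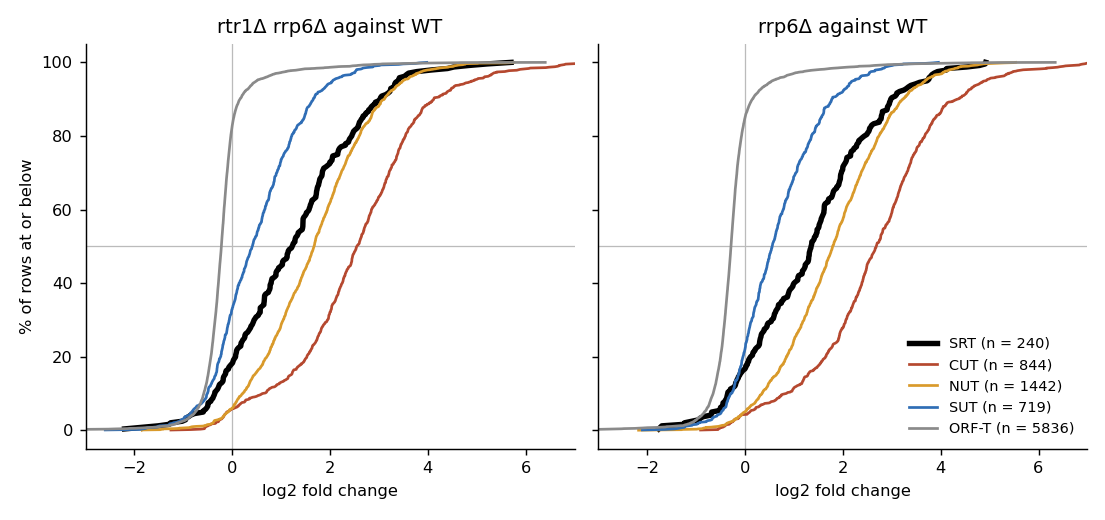
Percent of the rows of a class at or below each log2 fold change, in rtr1Δ rrp6Δ against WT (left) and rrp6Δ against WT (right), for SRTs (black), CUTs, NUTs, SUTs and ORF-Ts. The SRT curve crosses 50% at 1.23 and 1.35, to the right of the SUT curve and to the left of the NUT and CUT curves.

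The SRTs were also split by their level in WT, a split that uses the WT libraries of the comparison. Of the 111 SRTs that reached 1 CPM in at least 3 WT libraries, 43 were higher and 12 lower in rtr1Δ rrp6Δ, and 44 were higher and 10 lower in rrp6Δ. These are 38.7% and 10.8% in rtr1Δ rrp6Δ, where 20.2% and 8.19% of the 9968 rows of all classes that met this condition were called, and 39.6% and 9.01% in rrp6Δ, where 21.4% and 9.77% were. The median log2 fold change of these SRTs was 0.26 in rtr1Δ rrp6Δ and 0.31 in rrp6Δ, beside -0.15 and -0.19 for the 9968 rows. Those rows include ORF-Ts, and the other noncoding classes were not cut this way. The shares are therefore not shown to be particular to SRTs. Of the 102 SRTs under that level in every WT library, 91.2% were called higher in rtr1Δ rrp6Δ and 98.0% in rrp6Δ, beside 94.2% and 97.0% of the 1938 such rows of all classes. The choice of these rows fixes that outcome, and nothing is read from it. Cut by mean level over all libraries instead, the 80 lowest SRTs had 58 higher in rtr1Δ rrp6Δ and 67 in rrp6Δ. The 80 in the middle had 43 and 46, and the 80 highest 54 and 53. This cut includes the rows kept through strains other than WT, and all rows were not cut this way. Nothing is read from these counts either.

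The SRTs that rose most had few reads in WT. SRT500 had 55.6, 52.7, 61.3 and 54.2 CPM in rtr1Δ rrp6Δ and 28.9, 37.0 and 31.0 CPM in rrp6Δ, against 0.848, 0.754, 1.47 and 1.18 CPM in WT. It ranked near the middle of the SRTs in WT and second in both deletion strains by CPM. Its log2 fold change was 5.70 ± 0.19 in rtr1Δ rrp6Δ and 4.91 ± 0.19 in rrp6Δ (SE, adjusted p = 3.8e-10 and 1.5e-09). SRT203 had 12.4, 11.7, 14.2 and 13.4 CPM in rtr1Δ rrp6Δ and 15.6, 13.6 and 11.8 CPM in rrp6Δ, against 0.601, 0.590, 0.376 and 0.253 CPM in WT. This is the largest log2 fold change of an SRT in rrp6Δ, at 4.92 ± 0.22, with 4.84 ± 0.22 in rtr1Δ rrp6Δ (adjusted p = 4.5e-09 and 3.8e-09). SRT247 had 8.81, 6.83, 6.17 and 5.80 CPM in rtr1Δ rrp6Δ and 5.16, 5.85 and 4.42 CPM in rrp6Δ, against 0.106, 0.164, 0.251 and 0.197 CPM in WT, for log2 fold changes of 5.22 ± 0.24 and 4.79 ± 0.25.

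SRT599 shared its reads with CUT913, its counts lying within 0.433% in every library. It had 10.1, 8.97, 11.8 and 6.43 CPM in rtr1Δ rrp6Δ and 8.68, 8.24 and 6.12 CPM in rrp6Δ, against 0.318, 0.590, 0.565 and 0.281 CPM in WT. SRT48 varied little between rrp6Δ libraries, at 5.54, 5.41 and 5.30 CPM, with 3.38, 3.53, 3.83 and 4.40 CPM in rtr1Δ rrp6Δ and 0.353, 0.525, 0.439 and 0.281 CPM in WT. The log2 fold changes against WT of SRT599 were 4.40 ± 0.27 in rtr1Δ rrp6Δ and 4.12 ± 0.28 in rrp6Δ, and those of SRT48 were 3.24 ± 0.18 and 3.76 ± 0.18. Among the named rises, SRT31 and SRT101 rested on the fewest WT reads, with 2, 6, 2 and 0 counts and 2, 7, 3 and 0 counts in WT replicates 1 to 4. SRT31 had 66, 76, 57 and 70 counts in rtr1Δ rrp6Δ and 71, 56 and 72 in rrp6Δ, and its log2 fold changes of 4.53 ± 0.41 and 4.53 ± 0.42 became 5.40 and 5.40 without WT replicate 2. The log2 fold change of SRT101 in rrp6Δ, 3.87 ± 0.45, likewise became 4.69 without that library. The other named rises were SRT531, which shared reads with CUT794 and had a log2 fold change of 3.49 ± 0.36 in rrp6Δ, and SRT391, SRT595 and SRT178, with 4.06 ± 0.31, 3.42 ± 0.27 and 3.41 ± 0.27 in rtr1Δ rrp6Δ.

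A typical SRT changed less. SRT523, 1 of the 3 well-counted rows nearest the median in rrp6Δ, had the same counts as CUT777 in every library. It had 7.09, 8.97, 9.34 and 7.81 CPM in rtr1Δ rrp6Δ and 7.63, 9.82 and 7.73 CPM in rrp6Δ, against 3.92, 2.72, 3.61 and 2.98 CPM in WT. The log2 fold changes were 1.33 ± 0.15 and 1.34 ± 0.16 (SE, adjusted p = 9.3e-06 and 1.4e-05), and no WT library reached the level of a deletion library. SRT2, another row near the median, had 1.33, 1.28, 2.15 and 1.41 CPM in rtr1Δ rrp6Δ, 1.87, 2.94 and 2.65 CPM in rrp6Δ and 1.02, 1.11, 0.847 and 0.900 CPM in WT.

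A smaller group of SRTs had less RNA in the deletion strains, most of them in both. SRT168 had 0.596, 0.366, 0.623 and 0.402 CPM in rtr1Δ rrp6Δ and 0.570, 0.893 and 0.530 CPM in rrp6Δ, against 2.58, 2.26, 1.73 and 2.5 CPM in WT. It had the most negative log2 fold changes of any SRT, -2.20 ± 0.24 in rtr1Δ rrp6Δ and -1.77 ± 0.25 in rrp6Δ (SE, adjusted p = 5.8e-06 and 6.6e-05). SRT294, whose counts were within 6.93% of those of SUT393, had 2.92, 1.73, 1.71 and 1.71 CPM in rtr1Δ rrp6Δ and 2.98, 1.73 and 1.99 CPM in rrp6Δ, against 7.46, 6.82, 6.62 and 8.07 CPM in WT. Replicate 1 was the highest library of SRT294 in both deletion strains, and the log2 fold changes were -1.85 ± 0.21 and -1.70 ± 0.23. SRT320, within 0.473% of SUT428, had the most reads of the SRTs called lower, at 9.01, 14.5, 13.2 and 8.99 CPM in rtr1Δ rrp6Δ and 14.9, 9.24 and 8.66 CPM in rrp6Δ, against 26.1, 22.3, 21.8 and 22.7 CPM in WT. The log2 fold changes of SRT320 were -1.02 ± 0.20 and -1.09 ± 0.22 (adjusted p = 0.00081 and 0.0010).

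SRT229 and SRT421 were also lower in both strains, with log2 fold changes of -1.52 ± 0.27 and -1.29 ± 0.16 in rtr1Δ rrp6Δ and -1.25 ± 0.30 and -1.24 ± 0.18 in rrp6Δ. So was SRT605, at -0.78 ± 0.18 and -0.70 ± 0.20. With scaling by ORF-T rows alone its call was lost in both strains (log2 fold change -0.55 in rtr1Δ rrp6Δ, adjusted p = 0.123 in rrp6Δ). With upper-quartile scaling its value in rrp6Δ, -0.52, was also under 1.5-fold. SRT332 was called lower in rtr1Δ rrp6Δ at -0.59, and was under 1.5-fold with upper quartiles (-0.47) or ORF-T rows (-0.36). SRT72 had 0.795, 1.23, 1.25 and 1.63 CPM in rtr1Δ rrp6Δ and 0.507, 0.778 and 0.847 CPM in rrp6Δ, against 1.38, 1.67, 1.69 and 4.72 CPM in WT. WT replicate 4 was far above the other WT libraries, and without it the log2 fold change in rrp6Δ was -1.14 in place of -1.74. SRT279 was low in rrp6Δ, where it had 0.981, 0.979 and 1.03 CPM, and had 0.928, 1.91, 2.09 and 2.03 CPM in rtr1Δ rrp6Δ and 1.94, 2.23, 1.66 and 1.86 CPM in WT. Its log2 fold change was -0.94 ± 0.25 in rrp6Δ (adjusted p = 0.0066, or 0.0542 with scaling by ORF-T rows alone) and -0.13 ± 0.22 in rtr1Δ rrp6Δ (adjusted p = 0.62). The difference between these strains was 0.81 ± 0.25 (adjusted p = 0.20) and did not pass the test.

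**Figure D3:**
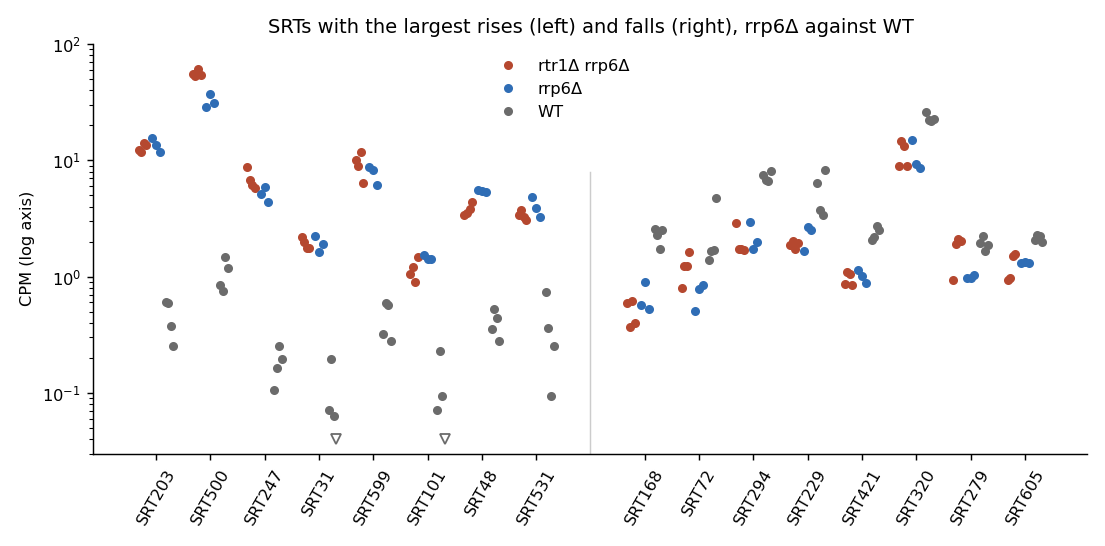
CPM per library on a log axis for the 8 SRTs with the largest called rise (left) and the 8 with the largest called fall (right) in rrp6Δ against WT. Each point is 1 library, and open triangles at the bottom are WT libraries with 0 counts of SRT31 and SRT101. On the left all deletion libraries lie above all WT libraries, with SRT500 at 52.7 to 61.3, 28.9 to 37.0 and 0.754 to 1.47 CPM in rtr1Δ rrp6Δ, rrp6Δ and WT.

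Few SRTs were called between rtr1Δ rrp6Δ and rrp6Δ. In rtr1Δ rrp6Δ against rrp6Δ, 2 SRTs were higher and 2 lower, or 0.833% each way, where 0.142% of all rows were called higher and 0.758% lower. The median log2 fold change of the SRTs was -0.07, and that of all rows 0.00. With the replicate number as a block in the fit, which the shared growth days allow, 6 SRTs were higher and 17 lower (2.5% and 7.08%), where 0.545% and 3.37% of all rows were called. Without the block, 16 SRTs were higher and 26 lower at an unadjusted p below 0.05 (6.67% and 10.8%, with 4.19% and 7.29% of all rows). Groups did not overlap in 12 SRTs above and 29 below (5% and 12.1%, with 5.5% and 7.56% of all rows). When 1 library was left out, the counts without the block ranged from 0 to 2 higher and from 0 to 3 lower. Both were 0 without rrp6Δ replicate 3 or 4, they were 0 and 1 without rtr1Δ rrp6Δ replicate 2, 3 or 4, 1 and 1 without rrp6Δ replicate 1, 2 and 3 without WT replicate 1 or 2, and 1 and 3 without WT replicate 4. Under other scalings they were 1 and 2 (relative log expression) or 1 and 4 (upper quartile, or ORF-T rows alone).

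SRT500 was higher again in rtr1Δ rrp6Δ than in rrp6Δ, its lowest rtr1Δ rrp6Δ library (52.7 CPM) exceeding its highest rrp6Δ library (37.0 CPM). The log2 difference was 0.79 ± 0.16 (SE, adjusted p = 0.0448, or 0.000225 with the block), and leaving out 1 library raised the adjusted p without the block to as much as 0.183. Scaling by relative log expression, by upper quartiles or by ORF-T rows alone also ended this call (adjusted p = 0.0531, 0.0688 and 0.0733). SRT513 had 3.28, 4.00, 3.27 and 3.27 CPM in rtr1Δ rrp6Δ and 1.68, 1.30 and 1.24 CPM in rrp6Δ, with 0.459, 0.459, 0.282 and 0.197 CPM in WT. It was the largest rise in this comparison, at 1.30 ± 0.21 (adjusted p = 0.0162, or 0.00133 with the block, and at most 0.0898 with 1 library left out). SRT225, which shared reads with SUT316 to within 7.14%, stepped down between genotypes, with 3.38, 2.56, 3.21 and 2.86 CPM in rtr1Δ rrp6Δ, 4.97, 5.10 and 5.64 CPM in rrp6Δ and 7.88, 7.64, 7.18 and 6.02 CPM in WT. Its log2 difference between rtr1Δ rrp6Δ and rrp6Δ was -0.81 ± 0.14 (adjusted p = 0.0217, or 0.00576 with the block, and at most 0.0980 with 1 library left out).

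SRT397 was the other lower row and fell outside the rule for named rows by its low counts, so it was singled out after its values were seen. It had 10, 20, 8 and 14 counts in rtr1Δ rrp6Δ and 31, 46 and 44 counts in rrp6Δ, with 2 counts in each WT library. The log2 difference between rtr1Δ rrp6Δ and rrp6Δ was -1.65 ± 0.24 (SE, adjusted p = 0.0079), and against WT it was still higher in both strains, at 2.47 ± 0.36 and 4.11 ± 0.32. SRT397 was thus nearer its WT level in rtr1Δ rrp6Δ than in rrp6Δ, and SRT500 and SRT513 were further from theirs. With the block, 19 more SRTs were called. Of these, also chosen after their values were seen, SRT201 had the most negative log2 change, with 0.805 CPM on average in rtr1Δ rrp6Δ and 1.99 CPM in rrp6Δ, while SRT340 had the most positive, with 8.09 and 4.68 CPM.

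**Figure D4:**
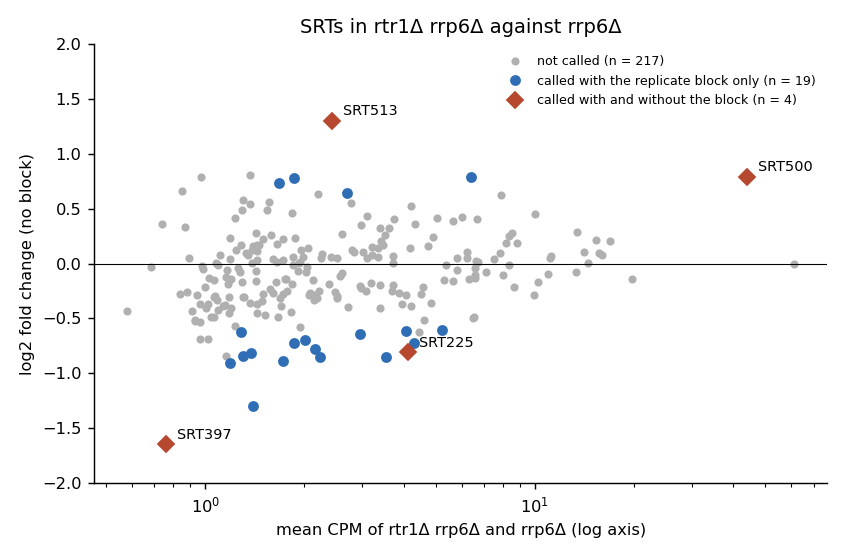
Log2 fold change of each SRT in rtr1Δ rrp6Δ against rrp6Δ, fitted without the block, over its mean CPM in those strains (log axis). Diamonds are the 4 rows called with and without the replicate block (SRT513 at 1.30, SRT500 at 0.79, SRT225 at -0.81, SRT397 at -1.65), blue circles the 19 rows called with the block only, and grey circles the 217 other rows.

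Many SRT rows had counts equal or close to those of rows of other classes. The counts of 8 SRTs equalled those of another row in every library: SRT321, SRT329, SRT413, SRT523 and SRT529 those of a CUT, SRT336 those of NUT0847, SRT509 those of SUT713 and SRT540 those of the AST row opposite FAR11. Among the 143 SRTs with a mean of at least 50 counts, 51 lay within 10% of another row in every library, 39 of them within 5%. The medians differed with the class of that row. All 12 SRTs that shared reads with a CUT were higher in both deletion strains, with a median log2 fold change of 2.61 in rtr1Δ rrp6Δ and 2.26 in rrp6Δ. Of 15 that shared reads with a NUT, 13 were higher in each strain (medians 1.33 and 1.62). Of 22 that shared reads with a SUT, 7 were higher and 4 lower in rtr1Δ rrp6Δ, and 8 were higher and 2 lower in rrp6Δ (medians 0.39 and 0.35). Of 16 that shared reads with an AST row, 9 were higher and 1 lower in rtr1Δ rrp6Δ and 11 were higher in rrp6Δ (medians 0.69 and 0.88), and of 5 that shared reads with a row named MAN, 3 and 4 were higher. No SRT shared reads with both a CUT and a SUT. The 92 SRTs of this level near no other row had medians of 1.16 and 1.30, with 59 higher and 4 lower in rtr1Δ rrp6Δ and 58 higher and 5 lower in rrp6Δ, and the 97 SRTs under 50 counts had 65 and 74 higher. These shares are set beside the 34.5% and 36.2% of all rows called higher, and differences between the sets were not tested. Of the CUTs as a class 89.6% and 90.4% were called higher, of the NUTs 81.8% and 84.7%, and of the SUTs 42.1% and 46.6%. An SRT that shares its reads with such a row repeats its value, so the sets above are not independent of those classes. Since the same RNA can stand in several rows, counts of SRTs are not counts of separate RNAs.

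**Figure D5:**
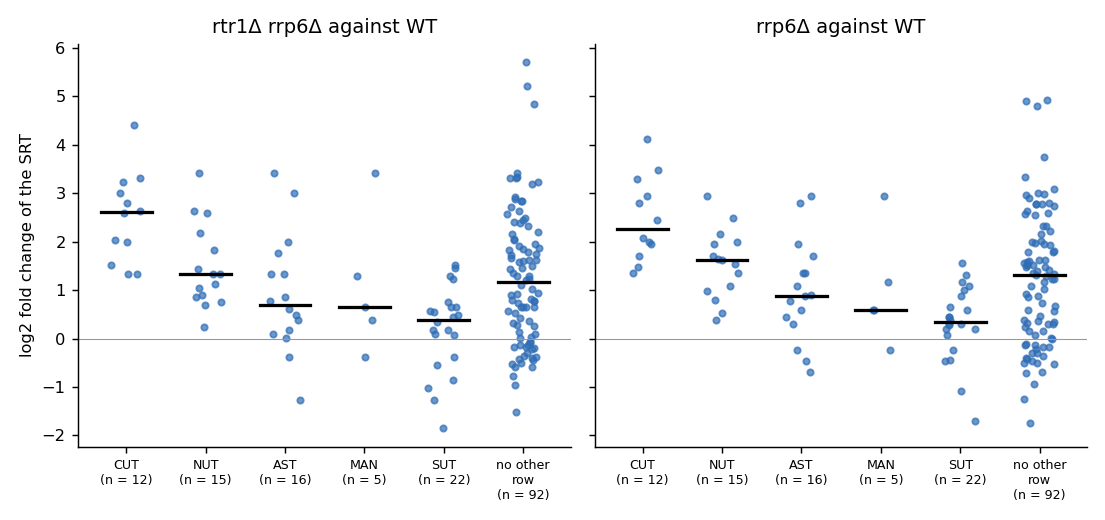
Log2 fold change of SRTs with a mean of at least 50 counts in rtr1Δ rrp6Δ against WT (left) and rrp6Δ against WT (right), by the class of the row whose counts lay within 10% in every library. Points are SRTs, bars are medians, and an SRT near rows of several classes is drawn in each. The 12 SRTs near a CUT are all above 0 with medians of 2.61 and 2.26, and the 22 near a SUT lie around 0 with medians of 0.39 and 0.35.

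The 9 SRTs that matched a row opposite a named ORF gave a view of both strands. The study kept AST rows because they changed in rrp6Δ cells of these same samples, so the rise of such rows is not independent evidence. The ORFs were MCH1, YGL185C, HXT4 and COF1, which lie on the minus strand, and YRO2, TFB3, VRL1, FAR11 and MKS1, which lie on the plus strand. SRT178, opposite COF1, the essential actin-severing protein cofilin (chrXII:39804-40414), had 14.5, 12.3, 11.5 and 8.14 CPM in rtr1Δ rrp6Δ and 11.9, 8.38 and 5.16 CPM in rrp6Δ, against 1.13, 1.25, 1.04 and 0.956 CPM in WT. COF1 itself had 329, 299, 361 and 308 CPM in rtr1Δ rrp6Δ and 235, 297 and 286 CPM in rrp6Δ, against 367, 366, 389 and 369 CPM in WT. The antisense side rose, by 3.41 ± 0.27 and 2.95 ± 0.28 on the log2 scale. The log2 fold change of COF1 was -0.20 ± 0.10 (SE, adjusted p = 0.0950, or 0.0202 with the block) in rtr1Δ rrp6Δ. In rrp6Δ it was -0.45 ± 0.11 (adjusted p = 0.00293), and neither passed 1.5-fold. The median over all ORF-Ts was -0.22 and -0.29. Library factors from ORF transcripts alone raised the median of all rows by 0.23 and 0.30. Values of COF1 with those factors were not recorded, so its small fall may depend on the scaling.

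SRT384, opposite TFB3, a subunit of the general transcription factor TFIIH, had 9.24, 8.32, 8.87 and 8.31 CPM in rtr1Δ rrp6Δ and 8.64, 7.06 and 7.12 CPM in rrp6Δ, against 1.31, 0.820, 1.35 and 0.872 CPM in WT. Its log2 fold changes were 3.00 ± 0.17 and 2.81 ± 0.18, and those of TFB3 were -0.38 ± 0.10 and -0.46 ± 0.11 (SE, adjusted p = 0.00503 and 0.00236). The falls of TFB3 were also under 1.5-fold and may likewise depend on the scaling. Both strands rose at YRO2, a gene for a membrane protein of unknown role. SRT333 had 8.45, 7.85, 7.88 and 7.71 CPM in rtr1Δ rrp6Δ and 11.2, 9.19 and 7.42 CPM in rrp6Δ, against 5.69, 3.71, 4.52 and 3.63 CPM in WT. YRO2 had 40.8, 144, 154 and 52.6 CPM in rtr1Δ rrp6Δ and 34.2, 151 and 109 CPM in rrp6Δ, against 12.2, 30.6, 30.1 and 20.6 CPM in WT, with replicate 1 the lowest in each group. The log2 fold changes were 0.86 ± 0.17 and 1.08 ± 0.18 for SRT333 and 2.07 ± 0.53 and 2.07 ± 0.55 for YRO2 (adjusted p = 0.00507 and 0.00632 for YRO2).

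SRT540, opposite FAR11, a member of a complex for recovery from pheromone arrest, was the only match equal in every library but averaged 24.3 counts. It had 0.530, 1.31, 0.592 and 0.904 CPM in rtr1Δ rrp6Δ and 1.08, 1.04 and 1.17 CPM in rrp6Δ, against 0.318, 0.459, 0.125 and 0.141 CPM in WT, for log2 fold changes of 1.71 ± 0.40 and 2.08 ± 0.42. SRT517, opposite VRL1, was the match that moved least, at 0.02 ± 0.12 and 0.31 ± 0.12. The rest, SRT36, SRT92, SRT124 and SRT549, were called higher in both strains, with log2 fold changes of 1.02 to 2.00 in rtr1Δ rrp6Δ and 1.30 to 1.95 in rrp6Δ. HXT4, a hexose transporter gene opposite SRT124, has close paralogs, so how reads were assigned to it is uncertain. Its log2 fold change was 1.34 ± 0.56 and 1.45 ± 0.59 (adjusted p = 0.0576 and 0.0501), and with the replicate block the adjusted p was 5.27e-07 and 1.26e-06. Of the 9 ORFs, 7 had a negative log2 fold change in each strain and 0 of these passed 1.5-fold, beside medians of -0.22 and -0.29 over all ORF-Ts.

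Genes of the machinery around Ssu72 changed little. Of 21 genes for CPF, cleavage factor IA and gene loop factors, 4 were higher and 4 lower in rtr1Δ rrp6Δ and 4 higher and 7 lower in rrp6Δ at an adjusted p of at most 0.05, where 36.8% of all rows were higher and 21.2% lower in rtr1Δ rrp6Δ and 38.5% and 24.7% in rrp6Δ without a fold minimum. With the 1.5-fold minimum, only SSU72 in rtr1Δ rrp6Δ was called. PCF11, a cleavage factor IA subunit that binds the RNAPII C-terminal domain, averaged 62.2 and 61.8 CPM in rtr1Δ rrp6Δ and rrp6Δ, against 47.8 CPM in WT (log2 fold changes 0.38 and 0.37). REF2, a CPF subunit used at small nucleolar RNA genes, had log2 fold changes of 0.43 and 0.39, and CFT2, a subunit of the CPF nuclease module, -0.27 and -0.33. With the block and no fold minimum, 5 genes of this list were higher and 8 lower in rtr1Δ rrp6Δ, where 40.5% of all rows were higher and 36.3% lower. In rrp6Δ 5 were higher and 13 lower, where 42.1% and 38.9% of all rows were. All rows include the noncoding classes, and such shares of the ORF-Ts alone were not computed. The median log2 fold change of the list, without the block, was -0.10 in rtr1Δ rrp6Δ and -0.19 in rrp6Δ. Over all ORF-Ts it was -0.22 and -0.29.

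Among 21 genes for NNS, the exosome and the TRAMP complex, which adds short tails to exosome substrates, 2 were higher and 1 lower in each strain without a fold minimum, beside the same shares of all rows. The lower gene was RRP6 itself. With the block, 3 were higher and 7 lower in rtr1Δ rrp6Δ and 3 higher and 11 lower in rrp6Δ, again beside the block's shares of all rows. Without the block, the median log2 fold change of this list was -0.12 in rtr1Δ rrp6Δ and -0.14 in rrp6Δ, beside -0.22 and -0.29 over all ORF-Ts. NRD1, which encodes an RNA-binding subunit of NNS, averaged 197 CPM in rtr1Δ rrp6Δ and 198 CPM in rrp6Δ, against 64.6 CPM in WT, for log2 fold changes of 1.61 and 1.62. AIR2, a TRAMP subunit, had 0.47 and 0.29, and LRP1, a partner of Rrp6, -0.35 and -0.44 (adjusted p = 0.172 and 0.107, or 0.0114 and 0.00450 with the block).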

How the data were processed

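Total RNA depleted of ribosomal RNA was sequenced, and the deposited table holds the authors' counts of reads per annotated transcript. Per the labels and the study's methods, reads were aligned to sacCer3 with STAR 2.5.2b and counted with featureCounts of Subread 1.5.0, over published annotations of coding and noncoding transcripts (SRTs among them) and the study's own antisense and manual ones. Strand and overlap settings of the counting are not given in the sources used here. COF1 and the row opposite it had very different counts, so strands were counted apart. The values are whole numbers with unequal totals and were taken as raw counts, although a legend of the study calls them normalized. The count column of replicate 2 among the rrp6Δ columns is headed with the RTR1 deletion alone. Whether it holds rrp6Δ or rtr1Δ replicate 2 was not settled, so this column (1 unused column) was left out, and the rrp6Δ group has 3 libraries. The table's group sums, averages, fold changes and p-values of each deletion strain against WT, which the authors computed, were not used.

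Members were the rows of class SRT. The members, gene lists and naming rule were chosen with earlier results of these data known. Counts of all 12670 rows were fitted in edgeR 4.0.16 (R 4.3.3) with TMM factors and the quasi-likelihood F test, all 3 groups sharing 1 estimate of the spread. The filterByExpr step removed 0 rows. A call needed an adjusted p (Benjamini-Hochberg over all rows) of at most 0.05 and a change of at least 1.5-fold. Alternatives were other scalings, DESeq2 1.42.0, other filters, no fold minimum, only 2 groups, the replicate block, and leaving out each library or SRTs that shared reads. Named rows were the 8 largest called rises and falls per comparison (groups not overlapping, mean of at least 50 counts in 1 group), the 5 highest by CPM in each group, the 3 nearest the median and those equal to another row. In pathway lists, up to 4 genes by adjusted p were named.

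Replicate numbers pair the samples, since cultures of 1 number were grown on 1 day. Deviations from the group means of same-numbered samples had correlations from 0.242 to 0.829 over 10 pairs. The deletion strains were each grown from 1 stock, so p-values measure spread between cultures, not between independently made strains. Errors are SD or SE as given, and sequences come from RefSeq.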

Additional observations from a re-analysis of the deposited data

Results flagged for a closer look

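For the named SRTs, the SRT share of all counts and the SRT median level, 82 sets of 4 libraries were looked at. A library far from the other 3 of its group was found in 7 sets, where chance alone marks about 1 set in 20. In rtr1Δ rrp6Δ, SRT2 was high in replicate 3 (2.15 CPM, against 1.28 to 1.41 in the others), SRT294 was high in replicate 1 (2.92 CPM, against 1.71 to 1.73), SRT513 was high in replicate 2 (4.00 CPM, against 3.27 to 3.28) and SRT279 was low in replicate 1 (0.928 CPM, against 1.91 to 2.09). In WT, SRT72 was high in replicate 4 (4.72 CPM, against 1.38 to 1.69), SRT329 was low in replicate 4 (0.112 CPM, against 0.282 to 0.295) and SRT431 was low in replicate 1 (2.44 CPM, against 3.25 to 3.40). The rrp6Δ group, with 3 libraries, was too small for this check.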

How the results depend on the processing

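Counts of SRTs higher in rrp6Δ (166) or rtr1Δ rrp6Δ (155) than in WT stayed within 1.5 times of these values under every alternative tried. Scaling moved the median of all rows by -0.11 (relative log expression), 0.18 (upper quartile) and 0.30 (ORF-T rows alone) on the log2 scale in rrp6Δ, and the SRT median less that of all rows stayed at 1.37. The SRT median in rrp6Δ was 1.53 with upper quartiles and 1.65 with ORF-T rows, where that in rtr1Δ rrp6Δ was 1.46. Lower SRTs numbered 7 (upper quartile) or 6 (ORF-T rows) in rrp6Δ and 7 (ORF-T rows) in rtr1Δ rrp6Δ, since these scalings raise all deletion values.

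The comparison of rtr1Δ rrp6Δ with rrp6Δ (2 higher, 2 lower) depended most on the settings. The counts were 1 and 2 with relative log expression, 1 and 4 with upper quartiles or ORF-T rows, 4 and 9 with DESeq2, 2 and 1 with at least 1 CPM in at least 3 libraries, and 2 and 1 without SRTs within 10% of another row (added after the data were seen). They were 4 and 3 without replicate 1 of every group, also added afterwards, and from 0 to 2 and 0 to 3 with 1 library left out. The replicate block gave 6 higher and 17 lower, and with no fold minimum, a setting added afterwards, 8 and 22, as well as 22 lower in rrp6Δ and 22 lower in rtr1Δ rrp6Δ against WT. The block changed no other count of SRTs by over 1.5 times. With 1 library left out, the SRT median against WT ran from 1.21 to 1.47 in rrp6Δ and from 1.18 to 1.23 in rtr1Δ rrp6Δ, and between the deletion strains from -0.13 to -0.02. The calls against WT then ran from 144 to 166 and 9 to 12 in rrp6Δ, and from 146 to 156 and 10 to 15 in rtr1Δ rrp6Δ. Of 646 values of named SRTs over 38 row and comparison pairs, 622 stayed on the same side of the adjusted p threshold. By adjusted p, 24 lost the call and 0 reversed. The 1.5-fold minimum was left out of this tally, so the number of lost calls is larger. With upper quartiles, for example, SRT605 in rrp6Δ (-0.52) and SRT332 in rtr1Δ rrp6Δ (-0.47) kept their adjusted p but fell under 1.5-fold. Apart from the effect of scaling, the causes were not tested. At 28765694 to 38578463 counts per library, 113 SRTs averaged under 1 CPM in WT, which limits the precision of their fold changes.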

Other observations

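The SRT numbers followed the genome in the rows placed through an ORF. The 4 SRTs whose counts matched a row opposite a minus-strand ORF, and so lie on the plus strand, were SRT36, SRT92, SRT124 and SRT178, on chromosomes IV, VII, VIII and XII in that order. The 5 on the minus strand were SRT333, SRT384, SRT517, SRT540 and SRT549, on chromosomes II, IV, XIII, XIV and XIV. Numbers thus ran along chromosomes on the plus strand first and the minus strand after it, as far as these 9 rows show.

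Replicate 1 lay above the other replicates in all 3 groups in 14 SRTs (5.83%), beside 21.5% of all rows. These 14 included SRT124, SRT333, SRT517 and SRT549, which are 4 of those 9 rows opposite ORFs. The share among rows opposite ORFs at large was not computed, and the overlap was not tested.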
